A study of Mus musculus with 8 samples.

Results

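The 10 genes described here encode parts of the Wnt pathway. They are the secreted ligands Wnt4, Wnt5a, Wnt7b and Wnt10a, the receptor Fzd6, the R-spondin receptors Lgr4 and Lgr6, the cytoplasmic regulator Axin2 and the transcription factors Tcf7l1 and Tcf7l2. They were taken by gene name from a table of read counts, 10 of its 23355 genes, and all 10 passed the filter on low counts that left 14533 genes to test. RNA came from buccal epithelium, the lining of the cheek, of untreated wild type C57BL/6 mice held specific pathogen free (SPF), 4 mice aged 1 week and 4 mice aged 8 weeks. The epithelium was lifted off with dispase II, its cells were sorted by FACS, and stranded libraries for very small amounts of total RNA were made after ribosomal RNA had been depleted. Sort gate, sex and batch are not stated in the labels, and that the 4 libraries of an age come from 4 animals is stated in the design text.

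Wnt ligands bind Frizzled receptors together with Lrp5 or Lrp6. In the canonical branch this stops the destruction complex, built on Axin and Apc proteins, from marking beta-catenin for breakdown, and beta-catenin then joins Tcf and Lef factors on DNA. R-spondins bound to Lgr receptors keep Frizzleds at the cell surface, and other branches act through planar polarity proteins without beta-catenin. In skin and oral epithelium the pathway is known for its part in the basal layer, in hair follicle and taste papilla formation and in the stem cells of these tissues.

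The libraries held 11747783 to 16807773 counts, and each of the 10 genes had 240 to 2340 counts in every library. At 240 counts, sampling alone gives a coefficient of variation of 6.45%. The keratins of the labelled tissue were abundant, with Krt5 at 6531 to 12583 CPM (read counts relative to the library total, with libraries scaled by TMM) and Krt13 at 6948 to 9243 CPM. Expression followed transcript length differently in the libraries, with slopes of -0.17 to -0.05 log2 units per doubling of length at 1 week and -0.02 to 0.20 at 8 weeks over 10371 genes. Values with an offset for length and GC content are therefore given where they matter.

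Between the ages Axin2, Wnt5a and Lgr6 were lower at 8 weeks and Tcf7l2 was higher. The decreases were 1.53-fold for Axin2, 1.59-fold for Wnt5a and 1.78-fold for Lgr6, and the increase of Tcf7l2 was 1.42-fold. Wnt4, Wnt7b, Wnt10a, Lgr4, Fzd6 and Tcf7l1 did not pass the test. The call rests on the two-sided quasi-likelihood F test of edgeR, with an adjusted p (Benjamini-Hochberg, over all tested genes) under 0.05. By this rule 6.55% of all tested genes were called (484 higher, 3.33%, and 468 lower, 3.22%), against 4 of the 10 genes (1 higher, 3 lower). The 10 genes were chosen with earlier results of these data known, so setting these shares side by side is not a test. Without 8 weeks 3 none of the 10 was called by edgeR (5 had an unadjusted p under 0.05). Of the 10, 2 were called without 1 week 1 or without 8 weeks 1, and 3 to 5 without any other single library. Calls over all genes also fell, from 952 to 91 of 14796 tested without 8 weeks 3 (2928 unadjusted). They were 130 without 1 week 1 and 136 without 8 weeks 1. With libraries scaled by their size alone 588 genes passed as higher and 255 as lower, 69.8% of the calls higher against 50.8%. The median log2 fold change (8 weeks over 1 week) of the 10 genes was 0.01, and that of all tested genes -0.0025. The same 4 genes were those whose libraries did not overlap between the ages, which held for 14.8% of all tested genes. In bulk RNA, fewer cells of a type and less RNA per cell cannot be told apart.

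**Figure D1:**
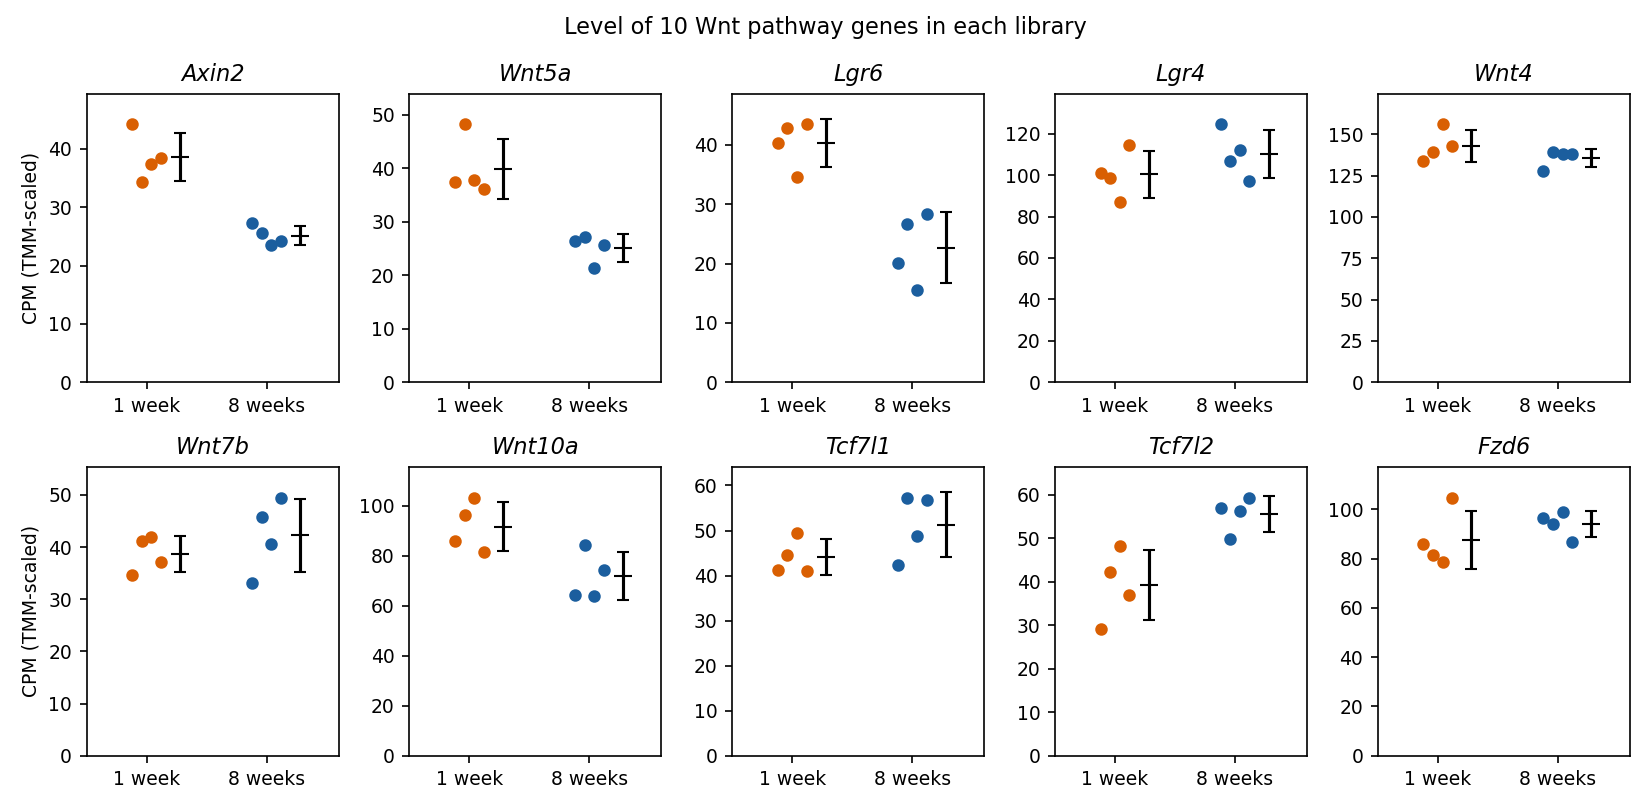
Level of each gene in each library, in CPM, on axes that start at 0. Points are the 4 libraries of an age in the order of their numbers, and the bar beside them is the mean with its SD (n = 4). The libraries of 8 weeks lie apart from and below those of 1 week for Axin2, Wnt5a and Lgr6, above them for Tcf7l2, and overlap them for the other 6 genes.

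Among the ligands, Wnt5a, which acts mainly through non-canonical branches, was the one of these 4 that edgeR called (ENSMUSG00000021994, GRCm38 chromosome 14, 28504750 to 28527448, plus strand). The libraries of 1 week stood at 37.4, 48.2, 37.8 and 36.1 CPM and those of 8 weeks at 26.4, 27.2, 21.3 and 25.6 CPM. Every library of 1 week lay above every library of 8 weeks, with 1 week 2 the highest and 8 weeks 3 the lowest of all. The means were 39.9 ± 5.61 CPM (SD, n = 4) and 25.1 ± 2.64 CPM, a log2 fold change of -0.67 (SE 0.12, edgeR adjusted p = 0.0153). With each library left out in turn the fold change ran from -0.71 to -0.57. The call was lost without 8 weeks 3 (adjusted p = 0.0533), and with the length and GC offset the fold change was -0.86 (adjusted p = 0.0080).

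Wnt5a is also known from fibroblasts. Of 10 fibroblast markers 8 had a row in the table, and their summed level was 968 to 1207 CPM at 1 week and 448 to 830 CPM at 8 weeks. Dcn, the gene of the proteoglycan decorin, made up most of that sum at 990 ± 113 CPM (SD, n = 4) and 541 ± 169 CPM, and it was called lower (log2 fold change -0.87, edgeR adjusted p = 0.0231). Fbln1, the gene of the matrix protein fibulin 1 and the only other tested marker, stood at 48.7 ± 5.23 and 52.5 ± 3.499 CPM and was not called (log2 fold change 0.11, edgeR adjusted p = 0.515). The collagen genes Col1a1 and Col1a2, the receptor genes Pdgfra and Pdgfrb, and Dpt were each under 1 CPM in all 8 libraries, and Col3a1 was at 1.13 CPM in 1 week 3 and under 1 CPM in the other 7. The part of fibroblasts in the result for Wnt5a was not tested.

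Wnt10a and Wnt4, both known as ligands of stratified epithelia and their appendages, were the most abundant ligands, and neither was called. Wnt10a (ENSMUSG00000026167, chromosome 1, 74791516 to 74804179) stood at 85.7, 96.2, 103 and 81.6 CPM at 1 week and at 64.3, 84.5, 64.1 and 74.5 CPM at 8 weeks. Only 8 weeks 2 reached into the range of 1 week. Wnt10a had a log2 fold change of -0.35 (SE 0.12, edgeR adjusted p = 0.0772). It passed without 8 weeks 2 (adjusted p = 0.0297), with the Wald test of DESeq2 (0.037) and with limma-voom (0.0358). Over the other libraries left out in turn it did not pass, with a highest adjusted p of 0.214.

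Wnt4 (ENSMUSG00000036856, chromosome 4, 137277489 to 137299726) was the steadiest of the 10 genes within an age, at 134, 139, 156 and 143 CPM and at 128, 139, 138 and 138 CPM. The groups overlapped, and the coefficient of variation was 6.67% at 1 week and 4.04% at 8 weeks. Wnt4 had a log2 fold change of -0.07 (SE 0.09, edgeR adjusted p = 0.612), and of 0.016 with library size alone as the scaling. Wnt7b, a ligand known from suprabasal and embryonic epithelia (ENSMUSG00000022382, chromosome 15, 85535437 to 85582473), ran from 34.6 to 41.9 CPM at 1 week and from 33.1 to 49.4 CPM at 8 weeks. The 8 weeks libraries of Wnt7b spanned the whole range of the younger ones (log2 fold change 0.12, SE 0.13, edgeR adjusted p = 0.559).

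The make-up of the ligand pool was described per length, as CPM per kilobase of exon sequence, so that genes of different length can be set side by side. Wnt10a made up 39.3 ± 1.85% (SD, n = 4) of the summed level of 15 Wnt genes at 1 week and 34.9 ± 2.38% at 8 weeks, and Wnt4 36.1 ± 1.32% and 39.0 ± 1.88%. At 1 week Wnt10a had the larger share in 3 of 4 libraries, and at 8 weeks Wnt4 had it in 3 of 4. Wnt7b held 8.36 ± 0.39% and 10.3 ± 1.10%, and Wnt5a 5.41 ± 0.77% and 3.87 ± 0.45%. The summed level of the 15 genes was 94.4 ± 6.57 and 83.1 ± 6.45 CPM per kilobase, with overlapping libraries. Wnt6 and Wnt3a, outside the 4 ligands described, held 4.66 ± 0.73% and 3.29 ± 0.18% at 8 weeks, the one above and the other below Wnt5a.

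**Figure D2:**
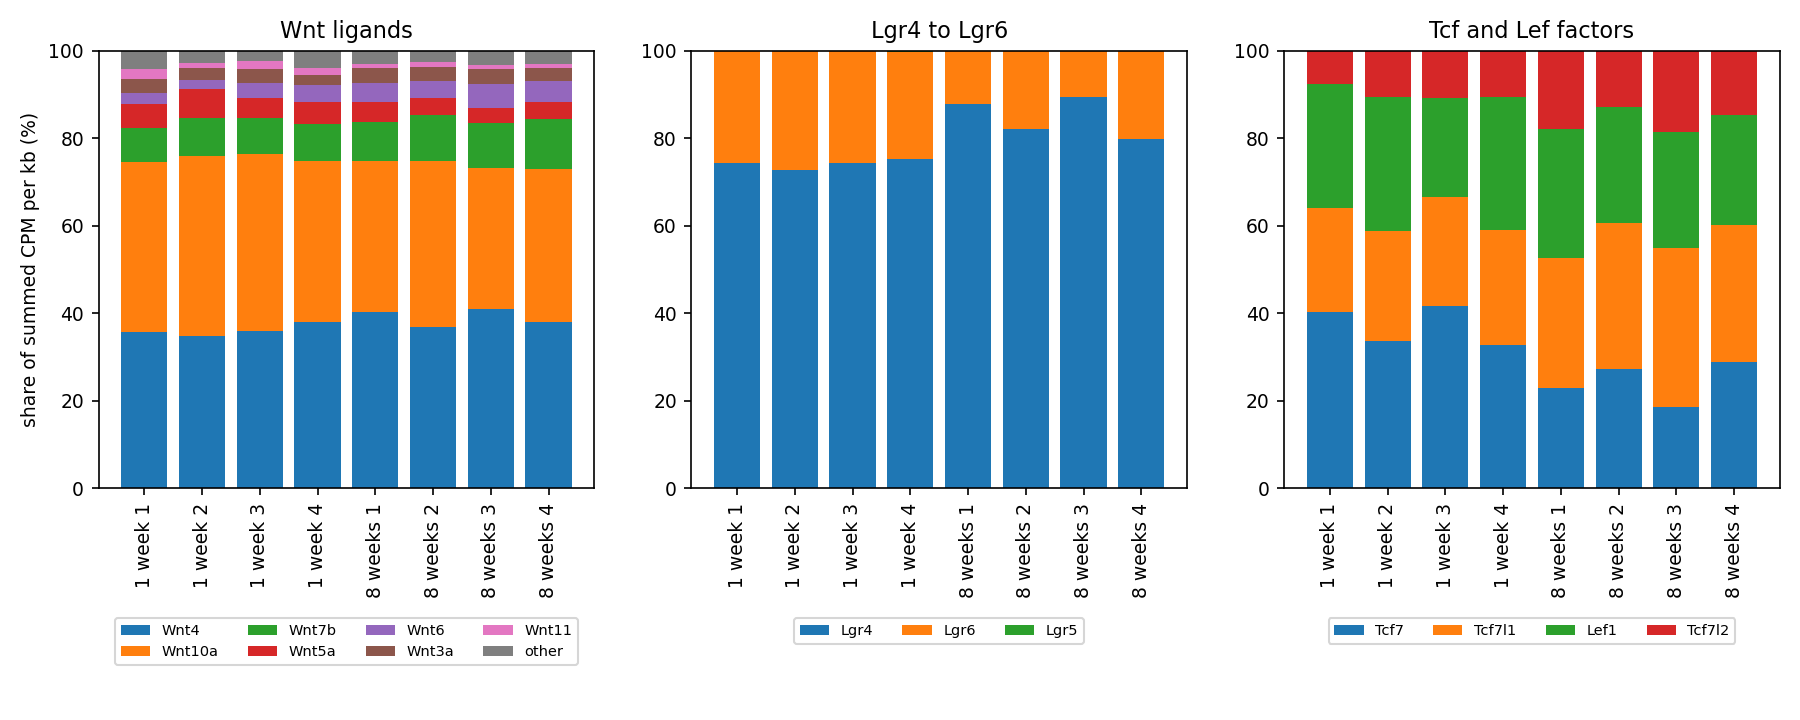
Share of each gene in the summed CPM per kilobase of its family (percent, y axis) in each library (x axis), for Wnt ligands, for Lgr4 to Lgr6 and for the Tcf and Lef factors. Each bar is 1 library. The share of Lgr6 is 24.5% to 27.1% in the libraries of 1 week and 10.6% to 20.05% in those of 8 weeks, and the share of Tcf7l2 is 7.58% to 10.9% and 12.9% to 18.6%.

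Fzd6 encodes a Frizzled receptor known for planar polarity in skin and hair (ENSMUSG00000022297, chromosome 15, 39006034 to 39038188). Its libraries stood at 86.0, 81.3, 78.8 and 105 CPM at 1 week and at 96.4, 94.2, 99.1 and 86.7 CPM at 8 weeks. The highest and the lowest value were both from 1 week, and the groups overlapped. The log2 fold change was 0.10 (SE 0.11, edgeR adjusted p = 0.558). Per length Fzd6 shared the Frizzled pool with Fzd1 and Fzd7 at close to equal parts, with 24.1 ± 4.17% (SD, n = 4) for the younger and 24.5 ± 2.28% for the older mice, against 28.3 ± 3.35% and 27.3 ± 2.48% for Fzd1 and 26.3 ± 2.71% and 24.5 ± 1.55% for Fzd7.

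Lgr6 is an R-spondin receptor gene that marks stem cells of hair follicle, skin and taste papillae (ENSMUSG00000042793, chromosome 1, 134983301 to 135105276, minus strand). It was at 40.4, 42.8, 34.6 and 43.4 CPM in the libraries of 1 week and at 20.1, 26.7, 15.5 and 28.4 CPM in those of 8 weeks. No library of 8 weeks reached the lowest one of 1 week, and the 8 weeks libraries varied more, with coefficients of variation of 26.3% against 9.95%. The means were 40.3 ± 4.01 CPM (SD, n = 4) and 22.7 ± 5.98 CPM, a log2 fold change of -0.83 (SE 0.17, edgeR adjusted p = 0.0193). Leaving out single libraries gave -0.96 to -0.68, and the call was lost without 1 week 1 (adjusted p = 0.0556), 8 weeks 1 (0.0653) or 8 weeks 3 (0.052). With the offset it was -1.04 (adjusted p = 0.0228).

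Markers of hair follicle were measured beside Lgr6. Their summed level was 17.3 to 36.9 CPM at 1 week and 11.9 to 19.6 CPM at 8 weeks, mostly from the homeobox gene Msx2. Of 3 tested markers Msx2 was called lower (21.8 ± 6.56 and 11.1 ± 3.10 CPM, edgeR adjusted p = 0.0339). Hoxc13 (5.82 ± 4.26 and 3.36 ± 1.28 CPM, edgeR adjusted p = 0.275) and Krt31 (1.21 ± 0.53 and 0.63 ± 0.12 CPM, 0.186) were not called. The follicle keratin genes Krt25, Krt27 and Krt71 were each under 1 CPM in all 8 libraries and were not tested. Of the basal keratinocyte markers 7 were tested and 0 called, against 6.55% of all tested genes. Of the Merkel or taste cell markers 2 were tested and 0 called. The part of follicle, basal or taste cells in the result for Lgr6 was not tested.

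Its relative Lgr4, broadly present in epithelia (ENSMUSG00000050199, chromosome 2, 109917647 to 110014257), stood at 101, 98.6, 86.9 and 115 CPM at 1 week and at 125, 107, 112 and 97.2 CPM at 8 weeks. The groups overlapped, and the log2 fold change was 0.14 (SE 0.11, edgeR adjusted p = 0.437). Per length Lgr4 held 74.2 ± 1.08% (SD, n = 4) of the summed level of Lgr4, Lgr5 and Lgr6 at 1 week and 84.8 ± 4.52% at 8 weeks, and Lgr6 25.6 ± 1.09% and 15.1 ± 4.46%. The shares did not overlap between the ages, also when the longest transcript of each gene was taken as its length (23.3 ± 1.02% and 13.6 ± 4.08% for Lgr6). Lgr5, a stem cell marker of the intestine and the follicle, had 26 counts in all and was not tested. Whether the fold changes of Lgr4 and Lgr6 differ was not tested.

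Axin2, a scaffold of the destruction complex and itself a widely used target gene of beta-catenin, fell (ENSMUSG00000000142, chromosome 11, 108920349 to 108950783, plus strand). The libraries of 1 week were at 44.2, 34.3, 37.4 and 38.4 CPM and those of 8 weeks at 27.2, 25.6, 23.5 and 24.3 CPM. The ages lay apart, and the 8 weeks libraries were close together, with a coefficient of variation of 6.57% against 10.7%. The means were 38.6 and 25.1 CPM, with a log2 fold change of -0.62 (SE 0.11, edgeR adjusted p = 0.0128). It ran from -0.67 to -0.54 with single libraries left out, with the call lost without 8 weeks 3 (adjusted p = 0.052), and was -0.71 with the offset (adjusted p = 0.0098).

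Tcf7l2 encodes a Tcf factor that binds beta-catenin (ENSMUSG00000024985, chromosome 19, 55741820 to 55933654, plus strand). It stood at 29.2, 42.2, 48.3 and 37.0 CPM at 1 week and at 56.9, 49.8, 56.2 and 59.2 CPM at 8 weeks. Every library of 8 weeks lay above those of 1 week, but 8 weeks 2 exceeded 1 week 3 only narrowly. The means were 39.2 ± 8.09 CPM (SD, n = 4) and 55.5 ± 4.07 CPM, a log2 fold change of 0.50 (SE 0.14, edgeR adjusted p = 0.0464). This call was close to the threshold: of the 8 fits with 1 library left out it held in 2, those without 1 week 3 or without 8 weeks 2 (highest adjusted p = 0.122, without 8 weeks 1), and with the offset the fold change was 0.50 (adjusted p = 0.0595). It was also lost with library size alone (0.0514) and with no filter (0.056).

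Tcf7l1, known as a repressor of Wnt targets in epidermal progenitors (ENSMUSG00000055799, chromosome 6, 72626378 to 72789254), had 41.2, 44.5, 49.6 and 41.0 CPM at 1 week and 42.3, 57.2, 48.9 and 56.8 CPM at 8 weeks. The groups overlapped, with 8 weeks 1 within the range of the younger libraries, and the log2 fold change was 0.22 (SE 0.12, edgeR adjusted p = 0.242). Within the family of Tcf and Lef factors, levels per length gave Tcf7l2 9.93 ± 1.57% at 1 week (SD, n = 4) and 16.0 ± 2.69% at 8 weeks, and Tcf7l1 25.1 ± 1.00% and 32.6 ± 2.77%. Tcf7 went the other way, from 37.0 ± 4.54% to 24.4 ± 4.57%, and Lef1 stood at 27.97 ± 3.77% and 26.9 ± 1.84%. For Tcf7, Tcf7l1 and Tcf7l2 the shares of the ages did not overlap. The size and the order of these shares depend on the length used. With the longest transcripts Tcf7l2 had 14.4 ± 2.24% and 22.1 ± 3.12%, and Tcf7 24.3 ± 3.77% and 15.3 ± 3.25%. Tcf7l1 then had 19.9 ± 0.66% and 24.7 ± 2.17%, and Lef1 the largest share at both ages, 41.3 ± 4.48% and 37.9 ± 1.86%.

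**Figure D3:**
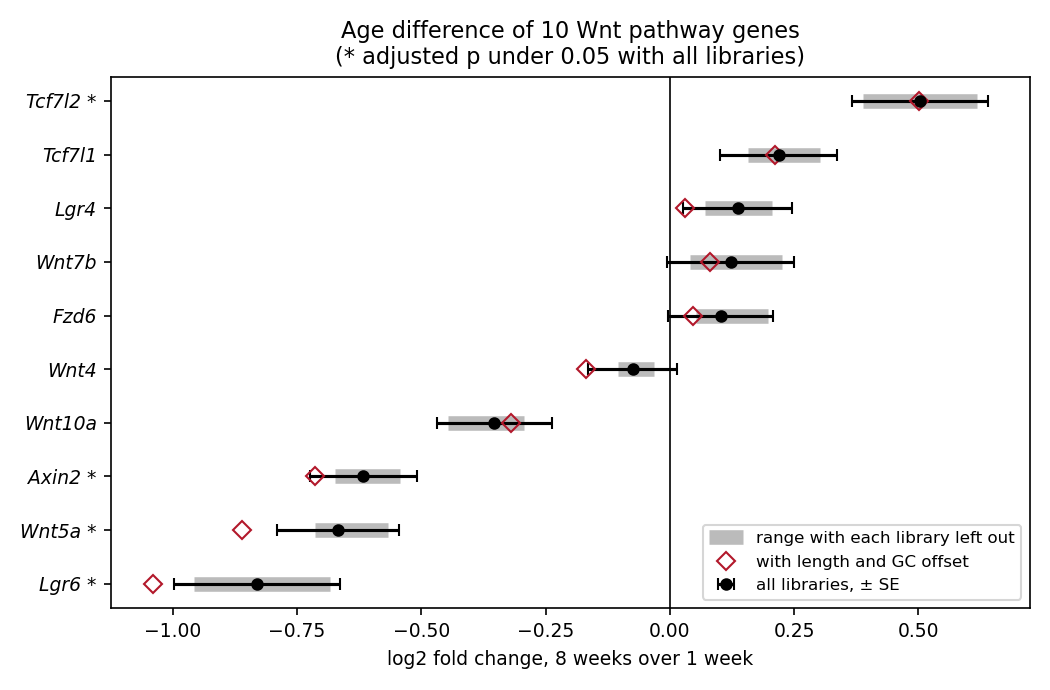
Log2 fold change of each gene, 8 weeks over 1 week (x axis), with all libraries (points, bars are the SE), the range over the 8 fits that each leave out 1 library (grey), and the value with the length and GC offset (open diamonds). Asterisks mark the 4 called genes. For Lgr6 the offset moves the value from -0.83 to -1.04, and for Wnt5a from -0.67 to -0.86.

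The authors' deposited table, made with DESeq2, gave the same 4 genes an adjusted p under 0.05, a rule that called 6.61% of the genes with an adjusted p in it. There the log2 fold changes were -0.61 for Axin2 (adjusted p = 0.000225), -0.66 for Wnt5a (0.000497), -0.82 for Lgr6 (0.000717) and 0.51 for Tcf7l2 (0.0176). For the other 6 genes the authors' deposited table had adjusted p-values of 0.0733 (Wnt10a) to 0.751 (Wnt4).

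Promoter sequences of the called genes are shown because they include a textbook beta-catenin target, Axin2, beside Lgr6, which was also lower, and Tcf7l2, which was higher. They are the 250 bases before the annotated start, from RefSeq (GRCm38.p6), on the strand of the gene and written 5′ to 3′. The RefSeq table matched 6 of the 10 genes by symbol, and Wnt5a, Wnt7b, Wnt10a and Fzd6 did not match. Capitals mark a match to the Tcf and Lef motif searched, CTTTG followed by AA, AT, TA or TT, on either strand. No other motif was searched.
Axin2 (chr11:108920099-108920348, plus strand): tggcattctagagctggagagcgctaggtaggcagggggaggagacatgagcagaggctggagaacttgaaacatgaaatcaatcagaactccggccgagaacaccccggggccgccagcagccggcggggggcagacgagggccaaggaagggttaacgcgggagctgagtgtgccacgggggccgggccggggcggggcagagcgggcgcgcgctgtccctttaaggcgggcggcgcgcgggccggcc
Lgr6 (chr1:135105277-135105526, minus strand): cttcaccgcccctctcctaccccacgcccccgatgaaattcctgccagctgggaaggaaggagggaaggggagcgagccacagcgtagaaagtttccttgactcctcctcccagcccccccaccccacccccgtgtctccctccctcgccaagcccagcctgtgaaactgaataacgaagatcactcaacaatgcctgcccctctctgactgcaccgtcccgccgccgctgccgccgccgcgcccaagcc
Tcf7l2, first start (chr19:55741560-55741809, plus strand): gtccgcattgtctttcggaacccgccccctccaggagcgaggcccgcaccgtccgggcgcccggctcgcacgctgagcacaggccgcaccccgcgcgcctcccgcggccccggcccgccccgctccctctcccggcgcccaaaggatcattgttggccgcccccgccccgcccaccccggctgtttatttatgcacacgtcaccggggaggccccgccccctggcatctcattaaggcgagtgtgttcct
Tcf7l2, start inside the gene (chr19:55895071-55895320, plus strand): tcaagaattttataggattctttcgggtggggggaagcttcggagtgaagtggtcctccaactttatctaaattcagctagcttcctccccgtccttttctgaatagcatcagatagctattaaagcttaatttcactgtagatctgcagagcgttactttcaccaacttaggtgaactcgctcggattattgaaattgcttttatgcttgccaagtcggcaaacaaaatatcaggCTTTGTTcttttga

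Of the 7 windows of these genes 1 held the motif, the one before the start inside Tcf7l2. Over all 32851 windows in the RefSeq table it was held by 4874 (14.8%). For Axin2, Lgr6 and the first start of Tcf7l2 this says only that these letters are not in this window. The windows of Axin2, Lgr6 and the first start of Tcf7l2 were rich in G and C, with 69.2%, 65.2% and 72.8% against a median of 52.4% over all windows, and held 24, 16 and 30 CpG pairs against a median of 6. The window inside Tcf7l2 had 40.8% and 7 CpG pairs. Of the genes called in the wider pathway, described next, 7 had a window. Counted per gene, 2 of these held the motif, Wnt11 and Tcf7l2, the latter only in the window inside the gene. The 14.8% is a share of windows, so it is not the background of this count per gene.

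The 10 genes were set among 124 genes of the pathway, sorted by role. Of these 111 had a row, 96 were tested, and 14 were called (5 higher, 9 lower), 14.6% against 6.55% of all tested genes. Leaving out 1 library gave 1 call (8 weeks 3), 3 calls (1 week 1 or 8 weeks 1), 8 (8 weeks 4), 9 (1 week 2), 11 (1 week 3 or 1 week 4) or 21 (8 weeks 2). Over all genes the same fits gave 91 (8 weeks 3) to 1891 calls (8 weeks 2), against 952 with all libraries. The balance of directions changed with the settings. Scaling by library size alone gave 7 higher and 6 lower. The stricter filter, which tested 83 list genes and neither Wif1 nor Wnt11, gave 8 higher and 7 lower. Over all genes 69.8% and 57.0% of the calls of these 2 settings were higher, against 50.8%. Without the 10 genes the count was 4 higher and 6 lower of 86 (11.6%). The median log2 fold change of the 96 genes was 0.03. Of the 96 genes 20 did not overlap between the ages, which held for 14.8% of all tested genes. With the length and GC offset 1 of the 96 was called higher and 7 lower, against 2.55% of all tested genes called. The lists were chosen with results of these data known, and no test was made of a list as a whole.

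**Figure D4:**
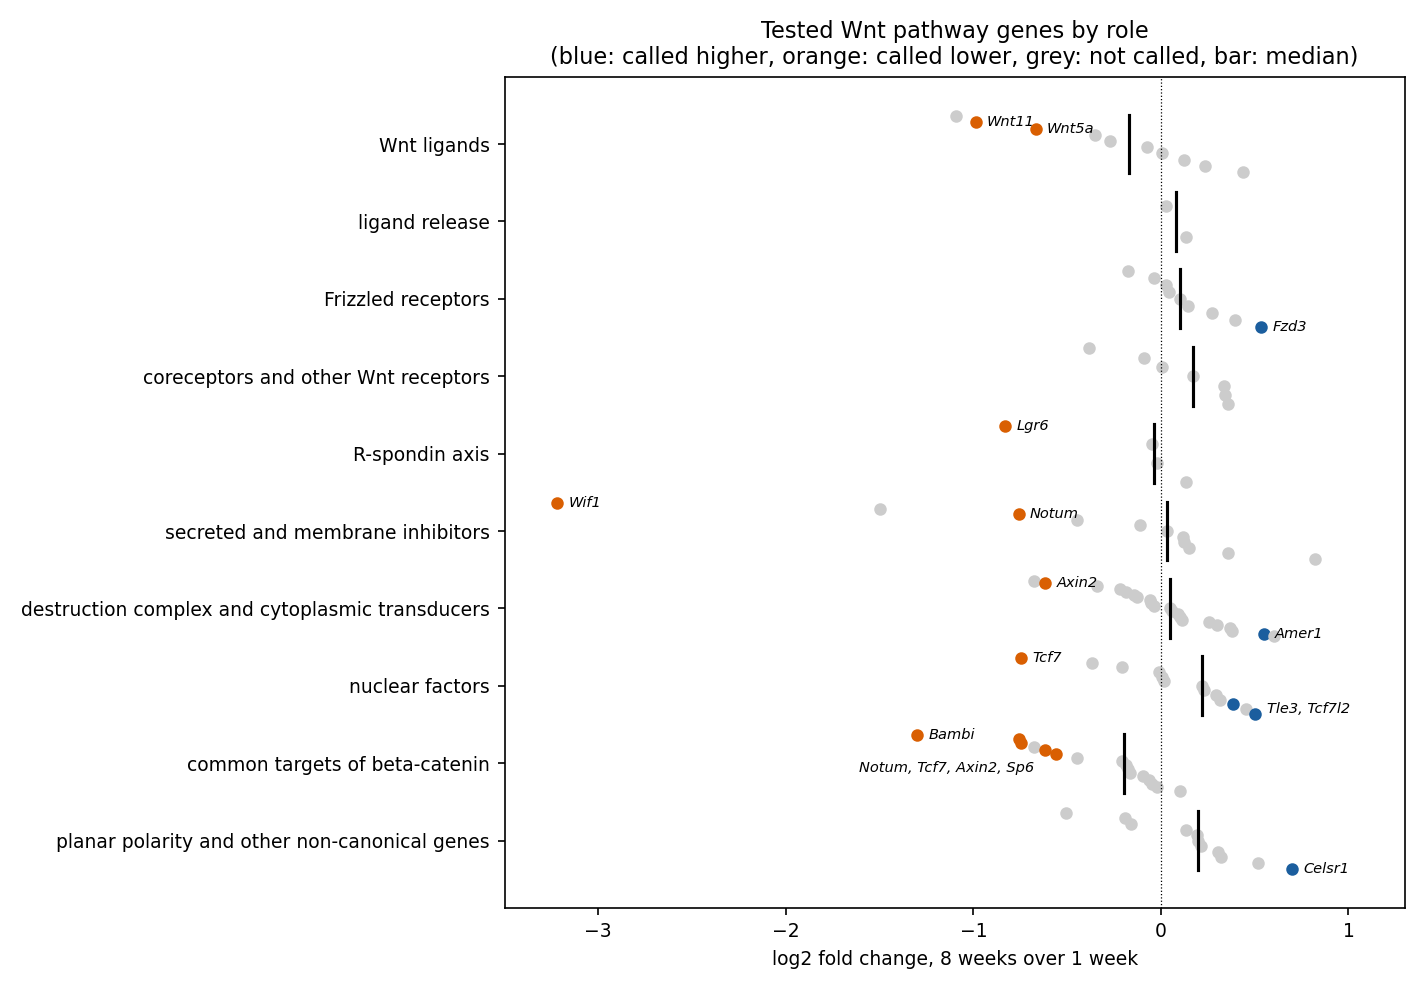
Log2 fold change, 8 weeks over 1 week (x axis), of the 96 tested pathway genes in 10 roles (y axis). Each point is a gene, in colour where called and named there, and the vertical bar is the median of a role. Genes of 2 roles are drawn in both. The calls among ligands, R-spondin axis, inhibitors and beta-catenin targets are lower, and those among Frizzleds and planar polarity genes are higher.

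Of 10 tested ligands edgeR called 0 higher and 2 lower, Wnt5a and Wnt11 (20% of the list, against 6.55% of all tested genes). At an unadjusted p under 0.05, which 27.8% of all tested genes reached, there were 0 higher and 3 lower. DESeq2 (14.2% of all tested genes called) and limma-voom (11.3%) each called 3. Wnt11, a non-canonical ligand gene, was at 8.68, 4.52, 7.34 and 5.70 CPM and at 3.27, 4.26, 2.39 and 3.30 CPM, apart between the ages by a small margin. Its log2 fold change was -0.99 (SE 0.27, edgeR adjusted p = 0.0472), and it held in 2 of the 8 fits with 1 library left out (highest adjusted p = 0.155, without 1 week 1), and not with the offset (0.0637). Of 9 Frizzled genes Fzd3, a receptor known for planar polarity, was called higher (11.1% of the list), from 30.3 ± 5.31 to 43.9 ± 3.29 CPM (SD, n = 4). It held in 4 of the 8 fits with 1 library left out (highest adjusted p = 0.103; lost without 1 week 1, 8 weeks 1, 8 weeks 3 or 8 weeks 4), and with the offset its log2 fold change went from 0.53 to 0.22 (adjusted p = 0.297). Of 4 tested genes of the R-spondin axis, Lgr6 was the call (25% of the list). The genes of the ligases Rnf43 and Znrf3, which remove Frizzleds from the surface, had log2 fold changes of -0.05 and -0.02.

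Among 11 tested inhibitors Wif1 and Notum fell, 18.2% of the list against 6.55% of all tested genes called. At an unadjusted p under 0.05, which 27.8% of all tested genes reached, 1 inhibitor was higher and 4 were lower. Wif1, a secreted protein that binds Wnt ligands, had 32, 43, 25 and 31 counts in the libraries of 1 week and 2, 8, 4 and 3 in those of 8 weeks. It was a scarce transcript, at 2.72 ± 0.51 CPM (SD, n = 4) and 0.29 ± 0.21 CPM, with the lowest library of 1 week at 2.02 CPM and the highest of 8 weeks at 0.60. The log2 fold change was -3.22 (SE 0.48, edgeR adjusted p = 0.0073). All 4 libraries of 8 weeks were under the filter's count of 10, so Wif1 was tested only through the age at which it is high, and it was not tested under the stricter filter. Notum, an enzyme that removes the lipid of Wnt ligands and is also a beta-catenin target, stood at 20.04, 29.2, 19.5 and 20.8 CPM at 1 week and at 11.3, 15.6, 11.6 and 14.7 CPM at 8 weeks. The ages lay apart, with a log2 fold change of -0.76 (SE 0.17, edgeR adjusted p = 0.0263), and 4 of 8 fits with 1 library left out kept the call (highest adjusted p = 0.0886, without 8 weeks 1).

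Of 16 tested targets of beta-catenin edgeR called 5 lower and 0 higher, 31.3% against 3.22% of all tested genes called lower. The 5 were Axin2, Notum, Bambi, Tcf7 and Sp6, and the median of the 16 was -0.20. At an unadjusted p under 0.05, which 27.8% of all tested genes reached, 6 were lower and 0 higher. This list was chosen with results of these data known and includes Axin2, so its share of calls is a description and not a test. With the offset 4 of the 16 were called lower. This count changed with single libraries, and so did that of all genes. Without 8 weeks 3 edgeR called 0 of the 16 (6 at an unadjusted p under 0.05) and 91 of all 14796 tested genes (2928 unadjusted). Without 1 week 1 or 8 weeks 1 it called 1 of the 16, and 130 or 136 of all tested genes. It called 2 of the 16 without 1 week 2, and 4 to 6 without any other single library. Bambi, a decoy receptor for TGF-beta and BMP ligands, was at 34.6, 23.5, 23.2 and 37.0 CPM at 1 week and at 8.67, 19.5, 9.89 and 10.2 CPM at 8 weeks, apart between the ages (log2 fold change -1.30, SE 0.24, edgeR adjusted p = 0.0164). Tcf7, which encodes the factor TCF1, and Sp6, an epithelial transcription factor gene, had log2 fold changes of -0.74 and -0.56 (adjusted p = 0.0491 and 0.0439), and their libraries overlapped. Bambi lost its call without 1 week 1, 8 weeks 1 or 8 weeks 3 (highest adjusted p = 0.0533), and Tcf7 and Sp6 each held in 3 of 8 such fits (highest 0.145 and 0.134).

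Of 21 tested genes of the destruction complex and cytoplasmic transducers, Axin2 fell and Amer1, the gene of an Apc-binding scaffold on the X chromosome, rose from 29.3 ± 2.17 to 42.9 ± 4.36 CPM (SD, n = 4). These 2 calls are 9.52% of the list, against 6.55% of all tested genes. At an unadjusted p under 0.05, which 27.8% of all tested genes reached, 4 of the 21 were higher and 2 lower. Among 13 nuclear factors Tcf7l2 and Tle3, a co-repressor gene, rose and Tcf7 fell (23.1%), with 5 higher and 2 lower unadjusted. Among 11 planar polarity and other non-canonical genes Celsr1, a cadherin gene of planar polarity, was higher, with 157 ± 32.3 and 254 ± 50.7 CPM (9.09% of the list called, 4 higher and 0 lower unadjusted). Of the 8 fits with 1 library left out Amer1 held in 5 (highest adjusted p = 0.0613), Celsr1 in 3 (0.0917) and Tle3 in 2 (0.128), and without 1 week 1, 8 weeks 1 or 8 weeks 3 none of the 3 was called. With the offset the log2 fold change of Amer1 went from 0.55 to 0.30 (adjusted p = 0.0962), that of Tle3 from 0.38 to 0.10 (0.581) and that of Celsr1 from 0.70 to 0.33 (0.117). Of 7 coreceptors and 2 genes of ligand release edgeR called 0, with medians of 0.17 and 0.08. At an unadjusted p under 0.05 (27.8% of all tested genes) there were 3 coreceptors, 2 higher and 1 lower. Of the 7 coreceptors DESeq2 called 2 (14.2% of all tested genes) and limma-voom 1 (11.3%).

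**Figure D5:**
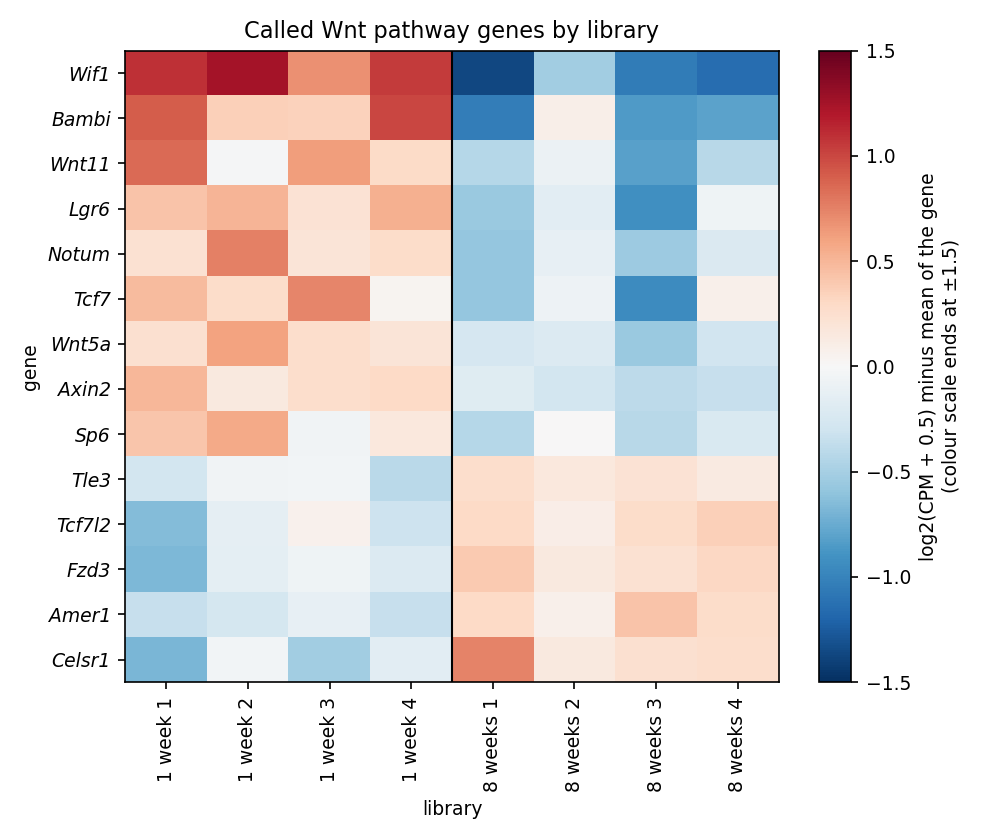
Level of the 14 called pathway genes (rows) in each library (columns), as log2(CPM + 0.5) minus the mean of the gene, in colour from blue (lower) to red (higher), with the scale ending at 1.5 on either side. The line divides the ages. The 9 genes that fell are mostly red at 1 week and blue at 8 weeks and the 5 that rose the reverse, with 8 weeks 2 the palest library of its age for Bambi, Celsr1 and Fzd3.

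The order of the 10 genes was similar at both ages. In CPM per kilobase at 1 week, Wnt10a (37.1 ± 3.97, SD, n = 4) and Wnt4 (34.1 ± 2.27) overlapped each other and lay above Fzd6 (18.2 ± 2.43) and Lgr4 (17.1 ± 1.94), which also overlapped. Tcf7l1 followed at 11.2 ± 1.02, apart from its neighbours. Below it Wnt7b (7.90), Axin2 (7.01), Lgr6 (5.88), Wnt5a (5.09) and Tcf7l2 (4.46) each overlapped the next. At 8 weeks the order was Wnt4 (32.4 ± 1.31), Wnt10a (29.1 ± 3.94), Fzd6 (19.5 ± 1.10), Lgr4 (18.7 ± 1.94), Tcf7l1 (13.1 ± 1.81), Wnt7b (8.62), Tcf7l2 (6.33), Axin2 (4.57), Lgr6 (3.31) and Wnt5a (3.21). There Wnt4 and Wnt10a, Fzd6 and Lgr4, and Lgr6 and Wnt5a overlapped, while Wnt7b, Tcf7l2, Axin2 and Lgr6 were apart from one another. By exon length Tcf7l2, lowest at 1 week, stood above Axin2, Lgr6 and Wnt5a at 8 weeks. This change of place depends on the length used, since its exons together span 8775 bases and its longest transcript 3715. With the longest transcripts the mean of Tcf7l2 at 1 week was 10.5 ± 2.18 CPM per kilobase (SD, n = 4). It was above Lgr6 (6.04 ± 0.60) and Wnt5a (5.69 ± 0.80), and above Axin2 (9.06 ± 0.97) by less than its SD.

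Genes with the most similar pattern over the 8 libraries were found among 10020 genes of at least 5 CPM, by the root mean square difference of log2 CPM after centring each gene. For Axin2 these were Tmem30b (0.08), Tmem251 (0.09) and Commd3 (0.10). For Wnt5a they included Prdx3 (0.06) and Ndufaf4 (0.09), and for Lgr6 they were Trim47 (0.13), Alcam (0.14) and Fam162a (0.15). Among the 3 genes themselves the difference was 0.20 for Axin2 and Wnt5a, 0.24 for Lgr6 and Wnt5a, and 0.30 for Axin2 and Lgr6.

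Some of these genes overlap a gene on the other strand. Exons of Axin2 share 209 bases with Gm11670, those of Wnt5a 358 with Gm2670, those of Wnt7b 324 with AU022754, those of Tcf7l1 179 with Gm15401 and those of Fzd6 152 with Gm26704. These partners had 12, 107, 88, 34 and 121 counts over all 8 libraries, against 3396 for Axin2 and 3473 for Wnt5a. The strand setting of the counting was not given in the sources used here.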

How the data were processed

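The authors deposited 1 table with raw read counts per gene for each library, a normalized signal (each library's counts over its own size factor), a mean signal, a log2 fold change with its standard error, the Wald statistic as a score, and a p-value with its adjusted p-value. Per the submitters' processing notes, the tools were TopHat2 2.1.1, HTSeq 0.6.0, cutadapt 2.10, bcl2fastq 2.20.0.422 and, as a statistics package, DESeq2 1.26.0, with the build GRCm38. The release of the annotation was not given in the sources used here. GENCODE M21, used for exon and transcript lengths, held 23320 of the 23355 genes, 99.2% at the same coordinates.

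Tests used edgeR 4.0.16 in R 4.3.3 on the raw counts: a filter on low counts (filterByExpr, count 10, total 15), TMM scaling, and the two-sided quasi-likelihood F test of 8 weeks against 1 week over all 8 libraries. Adjusted p-values are Benjamini-Hochberg over the 14533 genes tested, and standard errors were derived from the F statistic. On simulated data without a length trend the fit called 35.9% of 1.5-fold, 63.2% of 2-fold and 96.6% of 4-fold changes. A gene that was not called is therefore not shown to be unchanged. The 10 genes, the pathway lists and the marker lists were chosen with earlier results of these data known. The genes named are these 10, the called and the 3 most abundant genes of each pathway list, and the 3 genes nearest in pattern to Axin2, Wnt5a and Lgr6 (with a pseudocount of 0.5 CPM). For Wnt5a 1 of these 3 is not reported here.

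Alternatives were scaling by library size alone, by the upper quartile or by size factors of DESeq2, filtering not at all or more strictly (5 CPM in 4 libraries), DESeq2 1.42.0, limma-voom (limma 3.58.1) with quality weights, each library left out, 1 week 1 and 1 week 4 left out together (libraries that earlier work on these data found rich in small structural RNA), blocks by replicate number, and an offset per library from splines on transcript length and GC content (4 degrees of freedom each). The p-values set the difference between the ages against the spread between the libraries of an age, which is estimated with information from all tested genes. Each value column was given its sample by the library name that the labels list.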

Additional observations from a re-analysis of the deposited data

Results flagged for a closer look

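Among the 10 genes and the other called pathway genes, 40 groups of 4 libraries were checked for a single library far from the rest by Dixon's test at its 95% critical value, and 5 were found. Chance gives about 1 in 20 groups. Wnt5a stood at 48.2 CPM in 1 week 2, against 36.1 to 37.8 CPM in the other libraries of that age, and without this library its log2 fold change was -0.57 and the call was kept (edgeR adjusted p = 0.0287). Wnt4 stood at 128 CPM in 8 weeks 1, against 138 to 139 CPM. Notum was at 29.2 CPM in 1 week 2, against 19.5 to 20.8 CPM, and without it the log2 fold change was -0.61 and the call was lost (edgeR adjusted p = 0.0532). Bambi was at 19.5 CPM in 8 weeks 2, against 8.67 to 10.2 CPM. Celsr1 was at 329 CPM in 8 weeks 1, against 218 to 236 CPM, and without it the log2 fold change was 0.55 and the call was lost (edgeR adjusted p = 0.0917).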

How the results depend on the processing

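The 10 genes were followed through 20 other fits, 8 of which leave out 1 library. Lgr4, Wnt7b, Tcf7l1 and Fzd6 kept their direction and stayed uncalled in all 20. Wnt4 changed sign with library size alone (0.016), a scaling that moved the median of all genes by 0.096. Of the 20 fits the call held in 17 for Axin2, 18 for Wnt5a, 15 for Lgr6 and 7 for Tcf7l2, and Wnt10a gained one in 3. With single libraries left out the log2 fold changes ran from -0.67 to -0.54 (Axin2), -0.71 to -0.57 (Wnt5a) and -0.96 to -0.68 (Lgr6). Without 1 week 1 and 1 week 4 together they were -0.51 (adjusted p = 0.0904) for Axin2 and -0.77 (0.110) for Lgr6, and Wnt5a was still called. Same-numbered libraries had correlations of -0.31, -0.10, 0.00 and -0.10 of their deviations from the age means, and none was the closest partner of its namesake. Deviations of 4 libraries from their own mean must balance out, so these values cannot settle whether the samples were paired. The replicate block by titles kept Axin2, Wnt5a and Lgr6 (3 of the 10 genes called). The replicate block by the numbers of the library names, which leaves out 1 week 3 and 8 weeks 3, gave -0.59 (0.141), -0.61 (0.138) and -0.76 (0.0584) for these 3 genes.

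Of the 10 genes 4 were called with all libraries, 0 to 5 with 1 library left out, 1 without 1 week 1 and 1 week 4, and 0 when blocked by library-name numbers (edgeR; 4 at an unadjusted p under 0.05). The 0 with 1 library left out was without 8 weeks 3 (5 at an unadjusted p under 0.05), and 2 were called without 1 week 1 or 8 weeks 1. DESeq2 and limma-voom called 5 each. Of the pathway genes 14 were called, and 9 with no filter, 24 with DESeq2, 1 to 21 with 1 library left out (fewest without 8 weeks 3, most without 8 weeks 2), 2 without 1 week 1 and 1 week 4, 6 with the replicate block, 1 when blocked by library-name numbers, 8 with the length and GC offset and 5 with offset and block. Of all genes 952 were called, and 592 with no filter, 2069 with DESeq2, 1640 with limma-voom, 91 to 1891 with 1 library left out, 60 without 1 week 1 and 1 week 4, 161 and 92 with the blocks, 371 with the offset and 128 with offset and block. The fewest were without 8 weeks 3 and the most without 8 weeks 2, and the cause of these shifts was not tested.

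With the longest transcript as length, mean levels over the 8 libraries were 7.48 CPM per kilobase for Axin2 (5.79 with exon length), 20.8 for Lgr4 (17.9), 11.9 for Wnt7b (8.26), 15.7 for Tcf7l1 (12.2), 12.7 for Tcf7l2 (5.396) and 21.02 for Fzd6 (18.9). For the 10 genes, the counting error at the mean count of an age was below the coefficient of variation between libraries in all 20 combinations of gene and age.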

Other observations

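Among the pathway genes Ctnnb1, the gene of beta-catenin itself, had the highest mean level per length. It stood at 160 ± 7.98 CPM per kilobase (1 week) and 145 ± 14.4 (8 weeks; SD, n = 4 each), and was not called (edgeR adjusted p = 0.402). The adhesion receptor gene Cd44 was at 91.8 ± 7.62 and 98.3 ± 4.12, and the glypican gene Gpc3 at 95.3 ± 7.15 and 73.0 ± 11.1 CPM per kilobase. Gpc3 did not overlap between the ages and missed the threshold (log2 fold change -0.39, edgeR adjusted p = 0.0643), while the authors' deposited table gave it an adjusted p of 0.0347. Among secreted inhibitors Dkk3 (47.7 ± 4.68 and 44.2 ± 4.25 CPM per kilobase), Sfrp1 (30.3 ± 3.15 and 33.6 ± 3.93) and Sostdc1 (29.2 ± 3.45 and 37.5 ± 9.02) were the most abundant, and none was called. With the length and GC offset Sostdc1, which binds BMP ligands and Lrp receptors, was called higher (log2 fold change 0.56, edgeR adjusted p = 0.0464).

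The kinase gene Csnk1a1 (60.2 ± 3.68 and 57.9 ± 2.73 CPM per kilobase) and the ligand carrier gene Wls (11.7 ± 0.43 and 12.9 ± 0.55) were not called. R-spondin transcripts were scarce: Rspo1 had 15 and Rspo2 12 counts over all 8 libraries, and neither was tested.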
